A study of Mus musculus with 12 samples.

Results

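Car2 encodes carbonic anhydrase II, the cytosolic enzyme that turns carbon dioxide and water into bicarbonate and a proton and back again. It was examined here in mouse liver as 1 gene of 51609 rows in a count table, of which 17652 were expressed highly enough to be tested. The gene was chosen by its measured values. With dextran sodium sulfate (DSS) colitis its mean level was lower in wild-type liver and higher in liver of mice without hepatocyte Rela and Stat3. The second comparison cannot be told apart from a sex-linked difference described below. Because Car2 was chosen on these values, its levels and fold changes are given as a description with no p-value. Tests were kept for the other genes.

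The RNA-seq data came from 12 livers of C57BL/6 mice, with 3 mice in each of 4 groups. Wild-type untreated (WT untreated) and knockout untreated (KO untreated) mice drank water, and wild-type DSS (WT DSS) and knockout DSS (KO DSS) mice drank 2% DSS for 6 days, which injures the colon lining and causes acute colitis. According to the methods of the study, the knockout mice carried floxed alleles of both Rela and Stat3 deleted in hepatocytes by a Cre recombinase under the albumin promoter, and the controls were littermates. The animals were 5 to 7 weeks old and of either sex. The other liver cells of the knockout mice keep both genes, and a whole-tissue sample contains those cells too.

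Carbonic anhydrases are a family of zinc enzymes that differ in where in the cell they work. Car1, Car2, Car3, Car7 and Car13 are cytosolic, Car5a and Car5b are mitochondrial, and Car4, Car9, Car12 and Car14 sit in the plasma membrane. In the liver the bicarbonate they provide feeds the first step of the urea cycle, pyruvate carboxylation and fatty acid synthesis, and in bile duct cells it supports bicarbonate secretion. Carbonic anhydrase II is also a major enzyme of red blood cells. In bulk tissue, fewer cells of a type and less RNA per cell cannot be told apart.

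The libraries were checked first. Rela lay between 39.8 and 55.5 CPM (counts of a gene scaled to the TMM-normalized library total) in the 6 wild-type livers and between 39.5 and 62.3 in the 6 livers labelled knockout, so the level of Rela did not separate the genotypes. Stat3 lay between 43.0 and 74.8 CPM in the livers labelled knockout. It reached 138 in WT untreated and 330 in WT DSS mice, with 1 WT untreated mouse at 45.7 and 1 WT DSS mouse at 63.2. These counts cover whole genes in whole tissue and do not show the deleted exons, so they do not check the deletion. Xist, transcribed from the inactive X of females, was at 903 to 1283 CPM in all KO DSS mice and at 1143 in WT untreated mouse 3, against 0.191 to 29.0 in the other 8. The summed level of 4 Y-linked genes was at most 0.120 CPM in KO DSS mice, 30.1 in WT untreated mouse 3 and 175 or more in the others. The knockout DSS response therefore cannot be told apart from this sex-linked difference, whereas the wild-type response could be read among libraries of 1 class. Total estimated counts ran from 65879529 to 82850098 a library, and Car2 had 272 to 1402 estimated counts. These totals are not the number of reads sequenced, so the number of reads behind the Car2 values is not known here.

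Car2 lies at chr3:14886426-14900769 on the forward strand of NCBIM37 (mm9), where GENCODE vM1 gives it 7 exons in 1 transcript, with 1789 exonic bases of which 780 are coding. In WT untreated livers Car2 stood at 18.4, 12.3 and 16.9 CPM, a mean of 15.9 ± 3.17 (SD, n = 3). In WT DSS livers it stood at 5.31, 4.73 and 4.02 CPM, a mean of 4.69 ± 0.645 (SD, n = 3). All DSS-treated wild-type mice were below all untreated ones, and the lowest untreated mouse was above the highest treated one by more than either group's SD. The fitted log2 fold change was -1.76 ± 0.23 (SE), a 3.39-fold lower level.

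In KO untreated livers Car2 was at 7.32, 9.99 and 5.63 CPM, a mean of 7.65 ± 2.198 (SD, n = 3). In KO DSS livers it was at 14.4, 9.70 and 12.5 CPM, a mean of 12.2 ± 2.35 (SD, n = 3). The knockout groups overlapped, since KO DSS mouse 2 at 9.70 CPM was just below KO untreated mouse 2 at 9.99. The fitted log2 fold change was 0.67 ± 0.23 (SE), a 1.59-fold higher level, so the knockout change was the smaller of the pair and the less separated. The difference between the responses was 2.43 ± 0.33 (SE) on the log2 scale.

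**Figure D1:**
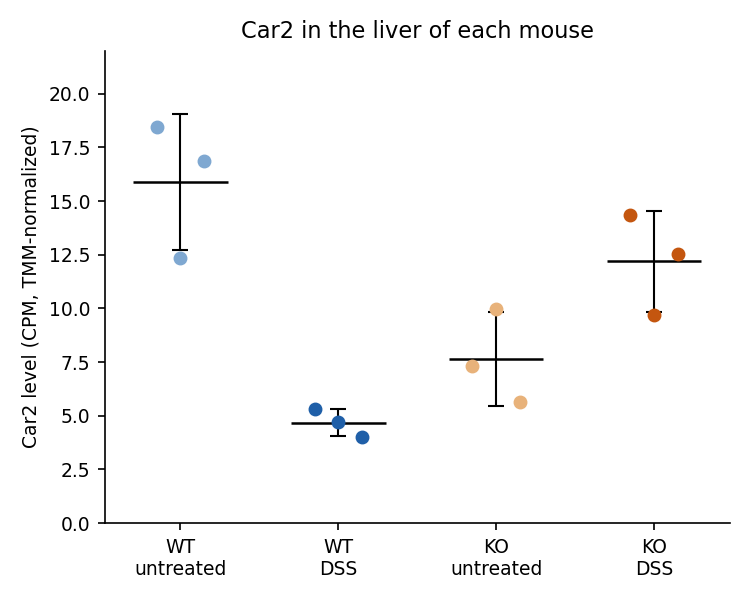
Car2 level in CPM (vertical axis, TMM-normalized) in the 4 groups (horizontal axis), with 1 point for each mouse, a line at the group mean and bars of 1 SD. The 3 WT DSS mice lie between 4.02 and 5.31 CPM, below all other mice, and the KO DSS mice between 9.70 and 14.4.

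Ordered by mean, Car2 was highest in WT untreated mice, then in KO DSS, KO untreated and WT DSS mice. Neighbouring groups in this order were not all distinct. WT untreated and KO DSS mice overlapped, with a ratio of means of 1.30, and KO DSS and KO untreated mice overlapped. KO untreated and WT DSS mice did not overlap, but the gap between the lowest of the former, 5.63 CPM, and the highest of the latter, 5.31, was below the SD of either group. Across genotypes Car2 was lower in KO than in WT mice without treatment, by -1.05 ± 0.23 (SE) on the log2 scale, and higher in KO than in WT mice after DSS, by 1.38 ± 0.23. Neither pair of groups overlapped.

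The direction of both responses was unchanged in every fit that was run. Over the alternatives, which included leaving out each mouse in turn, the log2 fold change ranged from -1.91 to -1.64 in wild-type and from 0.49 to 0.91 in knockout mice. Among wild-type mice with low Xist it was -1.71 ± 0.26 (SE), which leaves out WT untreated mouse 3. That mouse, high in Xist, had a Car2 level of 16.9 CPM, between the other WT untreated mice. With the sex-linked class as a covariate, the knockout change was 0.54 ± 0.43 (SE) and the difference between the responses 2.26 ± 0.57. Only the WT untreated group can inform that covariate, through mouse 3. Besides its high Xist, mouse 3 had 30.1 CPM of Y-linked transcripts, against at most 0.120 in KO DSS mice. It thus carried both signals, which limits every fit with the covariate.

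Car2 sits in a cluster of carbonic anhydrase genes. Every gene annotated within 250 kb of it belongs to the family or is a pseudogene, Gm5843, which had no counts. Car3 ends 14.1 kb before the start of Car2, Car1 lies 108 kb away on the opposite strand and Car13 223 kb away. Car3, a cytosolic enzyme of low activity that is abundant in liver and muscle, was at 1350, 1124 and 904 RPKM (CPM per kilobase of exon, a level per length) in WT untreated mice and at 541, 6.51 and 371 in WT DSS mice. In KO untreated mice Car3 was at 1394, 1117 and 405 RPKM and in KO DSS mice at 266, 256 and 130. All treated mice were below all untreated mice of their genotype, and WT DSS mouse 2 was far below the other mice.

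The log2 fold change of Car3 was -1.88 ± 1.07 (SE) in wild-type and -2.16 ± 1.08 in knockout mice, and neither passed the test (edgeR adjusted p of 0.465 and 0.257). Car1, the low-activity red cell isozyme, was at 29.5 to 42.2 RPKM in WT untreated, 0.594 to 14.8 in WT DSS, 16.2 to 35.3 in KO untreated and 6.42 to 15.5 in KO DSS mice. Its log2 fold changes were -1.89 ± 0.85 and -1.50 ± 0.84 (SE), again without passing the test (adjusted p of 0.347 and 0.318). WT DSS mouse 2, which had the lowest Car3 and Car1 of all mice, did not stand apart for Car2.

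Car13, a cytosolic enzyme, rose in knockout mice. It was at 0.262 to 0.526 RPKM in WT untreated and 0.534 to 1.08 in WT DSS mice, and at 0.164 to 0.353 in KO untreated and 0.584 to 1.01 in KO DSS mice. The log2 fold change was 1.65 ± 0.39 (SE, edgeR adjusted p = 0.0266) in knockout and 1.07 ± 0.38 (adjusted p = 0.215) in wild-type mice, and the difference between them did not pass (adjusted p = 0.622). The genes around Car2 thus had the same sign in both genotypes, downward for Car3 and Car1 and upward for Car13, where Car2 had opposite signs. Car3 is also on the list of male-biased liver genes used below. The knockout changes of all these genes compare KO DSS mice high in Xist with KO untreated mice low in it.

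**Figure D2:**
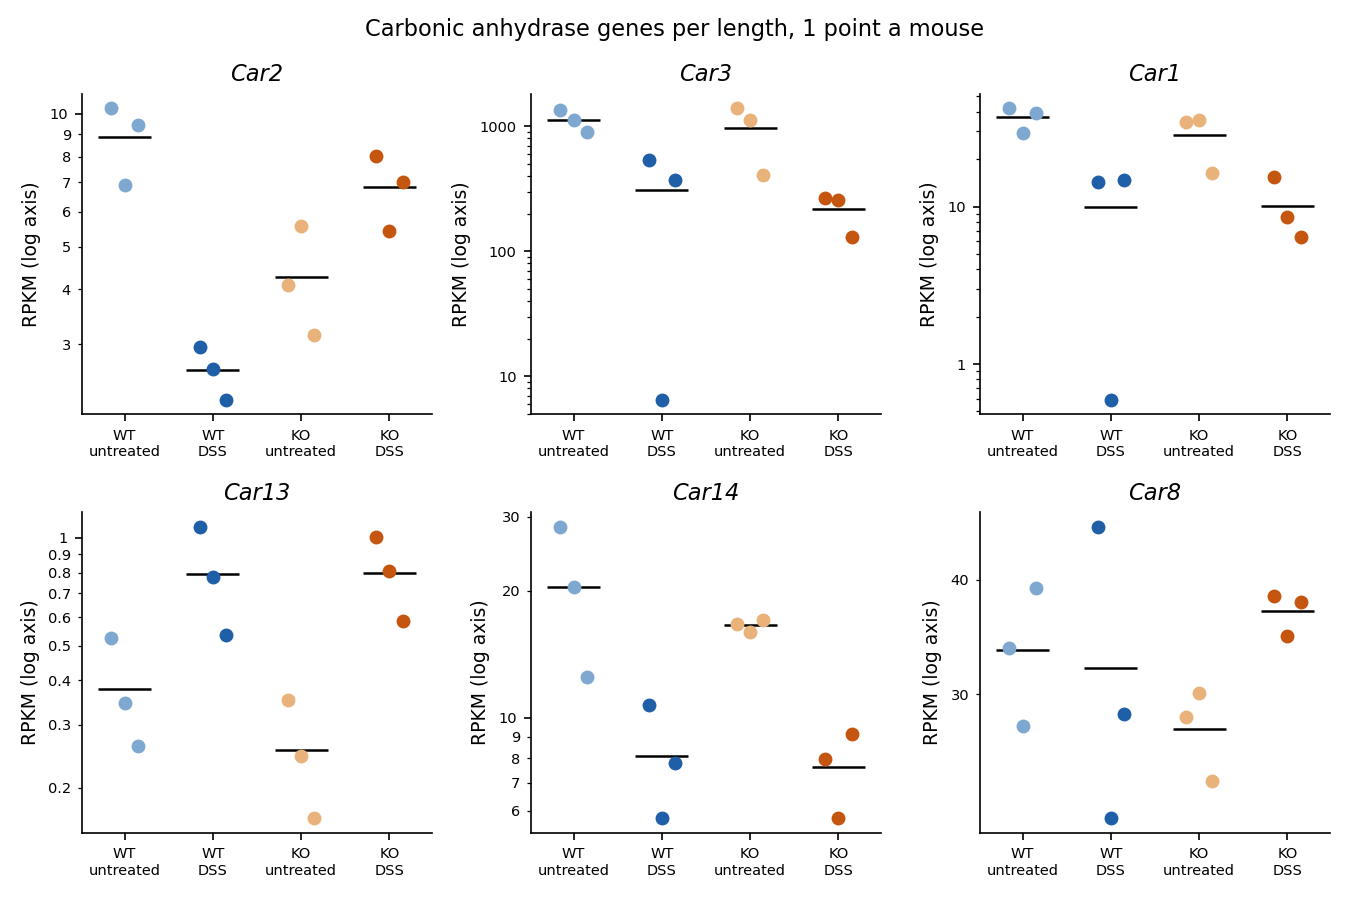
Level per length in RPKM (vertical axes, log scale, a different range for each gene) of 6 carbonic anhydrase genes in the 4 groups, with 1 point for each mouse and a line at the group mean. Car3 and Car1 have lower means after DSS in both genotypes and Car13 higher means, while the Car2 means move in opposite directions. The Car8 means also do, from 33.5 to 32.1 RPKM in wild-type and from 27.5 to 37.0 in knockout mice.

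Of the 16 carbonic anhydrase genes listed, 15 were analysed and 12 were tested, Car2 among them. Per length, Car2 was the sixth in WT untreated liver with a mean of 8.88 ± 1.77 RPKM (SD, n = 3). Above it were Car3 at 1126 ± 223, Car5a at 51.4 ± 5.65, Car1 at 36.9 ± 6.60, Car8 at 33.5 ± 5.71 and Car14 at 20.5 ± 7.996. Car5b, Car13, Car7, Car9, Car11 and Car4 were below 1 RPKM in that group. Car12 was lower still, at a mean of 0.00691 ± 0.00622 RPKM (SD, n = 3) there. Its highest group was KO untreated, at a mean of 0.0393 ± 0.0536 RPKM (SD, n = 3). KO untreated mouse 2 held the highest values of 3 membrane-bound enzymes, namely Car12, Car4 at 0.568 RPKM and Car9 at 2.05 RPKM. Car9 was at 0.312 RPKM or below in the other 11 mice. Car6 and Car10 had no counts in any of the 12 libraries.

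In wild-type mice none of the other 11 tested family members passed the test after DSS, against 0.685% of all genes tested. At an unadjusted p under 0.05 there were 3 of them, and DESeq2 called 1. In knockout mice 2 of 11 passed, against 7.02% of all genes. These were Car13 and Car14, a membrane-bound enzyme that faces the outside of the cell. Car14 was at 16.0 to 17.0 RPKM in KO untreated and 5.77 to 9.13 in KO DSS mice, with a log2 fold change of -1.12 ± 0.28 (SE, edgeR adjusted p = 0.0353). Its wild-type change was -1.34 ± 0.29 (adjusted p = 0.0545), from 12.5 to 28.4 down to 5.78 to 10.7 RPKM, with no overlap between the groups.

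The knockout calls of both genes were lost in several fits that left out 1 mouse, while the log2 fold changes kept their sign. Car13 was not called without KO untreated mouse 2 or 3 or without KO DSS mouse 1 or 2, with log2 fold changes of 1.41 to 1.64 and adjusted p of 0.0606 to 0.108 in those fits. Car14 was not called without WT untreated mouse 2 or without any 1 of the 6 knockout mice, with values of -1.27 to -0.95 and adjusted p of 0.0503 to 0.113. Its wild-type change passed the test in 6 of 20 alternatives, among them without WT untreated mouse 3 or WT DSS mouse 1 (adjusted p of 0.0377 and 0.0321). With the sex-linked class as a covariate, neither knockout change was called (2.38, adjusted p = 0.292, for Car13 and -0.15, adjusted p = 0.930, for Car14). In that fit 39 of the 47 calls of single genes named here were lost, and the 8 that held were those of the Y-linked genes.

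Car5a, the mitochondrial enzyme of hepatocytes that supplies bicarbonate to the urea cycle, was at 46.6 to 57.6 RPKM in WT untreated and 25.9 to 44.9 in WT DSS mice, a log2 fold change of -0.55 ± 0.22 (SE, edgeR adjusted p = 0.269). In knockout mice the change was -0.36 ± 0.22 (adjusted p = 0.338). Car8, a family member without enzyme activity, changed by -0.06 ± 0.23 and 0.43 ± 0.23, and Car5b by -0.19 ± 0.20 and -0.05 ± 0.20. None of these 6 values passed the test. The signs of Car8 were those of Car2, and its knockout groups did not overlap, at 24.1 to 30.1 RPKM untreated and 34.7 to 38.4 after DSS. Car4 (0.45 and -2.28) and Car9 (0.09 and -2.58) had the reverse signs, also without passing the test.

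For the difference between the genotypes' responses, none of the other 11 family members passed the test, against 0.408% of all genes tested. None of the 11 had an unadjusted p under 0.05 and DESeq2 called none of them. The estimated differences were between -2.73 and 0.58 on the log2 scale over the 11 genes, where that of Car2 was 2.43. The groups of mice did not overlap for 5 of the 11 in wild-type mice, against 18.7% of all genes, and for 6 of the 11 in knockout mice, against 31.8%.

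**Figure D3:**
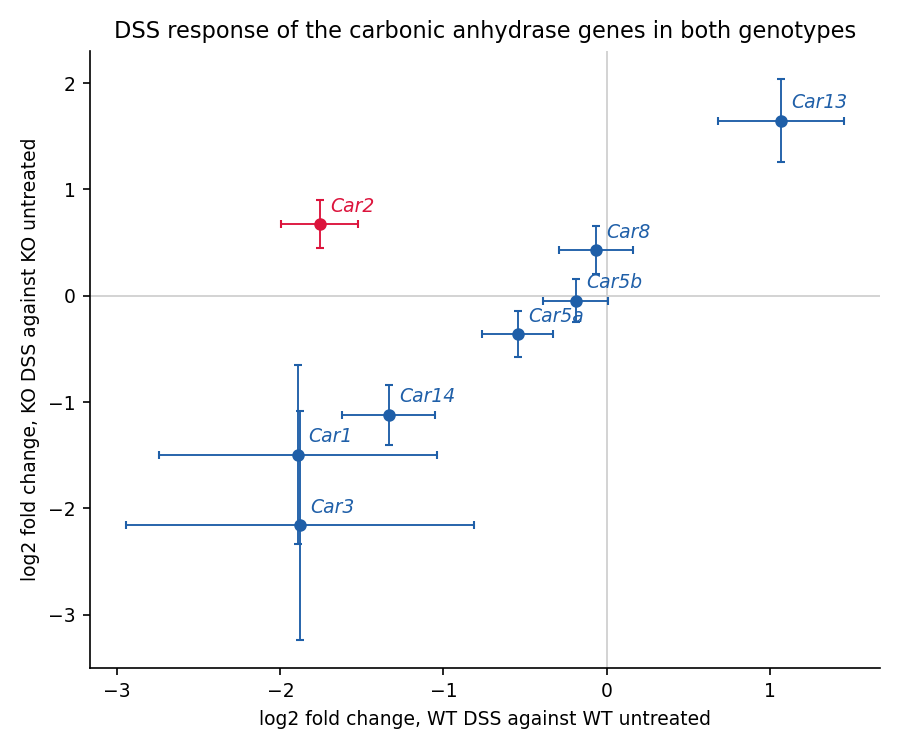
log2 fold change with DSS in wild-type mice (horizontal axis) and in knockout mice (vertical axis) of the 8 carbonic anhydrase genes with a mean of at least 1 CPM, with bars of 1 SE. Car2, at -1.76 and 0.67, is at the upper left, and Car3, Car1, Car14 and Car5a are in the lower left with negative values on both axes. Car8, at -0.06 and 0.43, has the same signs as Car2.

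The genes that bring bicarbonate to its uses gave few calls. Of 22 tested bicarbonate, proton and lactate transporters, none passed in either genotype or for the difference (edgeR), with 2, 2 and 1 at an unadjusted p under 0.05 and none by DESeq2. Their median log2 fold change was -0.20 in wild-type and -0.26 in knockout mice, where the median of all genes was 0.02 and -0.01. None of 9 bicarbonate-fixing carboxylases and Cps1, the first enzyme of the urea cycle, passed either. At an unadjusted p under 0.05 there were 2, 4 and 2 of them, and DESeq2 called 0, 3 and 0. Of 27 enzymes of one-carbon metabolism, Ahcyl2, a regulator related to the enzyme that splits S-adenosylhomocysteine, fell in knockout mice, by -0.70 ± 0.17 (SE, edgeR adjusted p = 0.0255), and no other passed in any of the 3 comparisons. That is 1 of 27, against 2.46% of all genes called lower in knockout mice. Unadjusted, 4, 9 and 3 of the 27 were under 0.05, and DESeq2 called 1, 7 and 0.

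Markers of cells in which Car2 is known were measured beside it. The summed level of 12 erythroid markers was 210 to 257 CPM in WT untreated and 93.7 to 131 in WT DSS mice, and 110 to 170 in KO untreated and 70.3 to 133 in KO DSS mice. The sum was thus lower after DSS in wild-type mice, as Car2 was, and overlapped between the knockout groups. Over the 12 livers Tfrc averaged 85.5 CPM and Alas2 45.4, so these genes made up most of the sum. Of the 10 tested markers 6 had a negative and 4 a positive change in wild-type mice, with a median of -0.20. Rhag, a red cell membrane protein, was at 0 in all groups but WT DSS. Of the globin transcripts, Hbb-b1 was at 7.72 to 11.2 CPM in WT untreated and 6.12 to 10.5 in WT DSS mice, which overlapped, as did Hba-a1 and Hba-a2. Hbb-b2 did not overlap in wild-type mice, at 2.74 to 3.61 CPM untreated and 0 to 2.56 after DSS. Of 10 tested erythroid markers, Tfrc passed in wild-type mice and Alas2 in knockout mice, against 0.685% and 7.02% of all genes, and the part of these cells in the Car2 values was not tested.

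Tfrc, the transferrin receptor through which cells take up iron, fell in wild-type mice, with a log2 fold change of -1.69 ± 0.33 (SE, edgeR adjusted p = 0.0393, and 0.0520 or more in 13 of 20 alternatives). Its knockout change was 0.64 ± 0.32 (adjusted p = 0.244) and the difference between the responses 2.33 ± 0.46 (adjusted p = 0.0536). Its Pearson r with Car2 was 0.80 over the 12 libraries. Alas2, which makes the haem of red cells, fell in knockout mice by -2.68 ± 0.59 (SE, adjusted p = 0.0269), where Car2 was higher.

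The summed level of 13 cholangiocyte markers was 43.9 to 55.3 CPM in WT untreated, 46.6 to 51.8 in WT DSS, 40.9 to 45.3 in KO untreated and 52.3 to 63.5 in KO DSS mice. The wild-type groups overlapped while Car2 did not, and the knockout groups did not overlap. None of 10 tested markers was called by edgeR (3 and 2 at an unadjusted p under 0.05, and 2 and 1 by DESeq2, in wild-type and knockout mice). Sctr, the secretin receptor, was at 0 in both wild-type groups and Cftr, the chloride channel, in KO DSS mice. Krt7, Krt19 and Epcam, keratins and an adhesion protein of bile ducts, were detected at 0.228 to 7.02 CPM, the highest being Krt19 in KO untreated mouse 2. The part of bile duct cells was not tested.

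**Figure D4:**
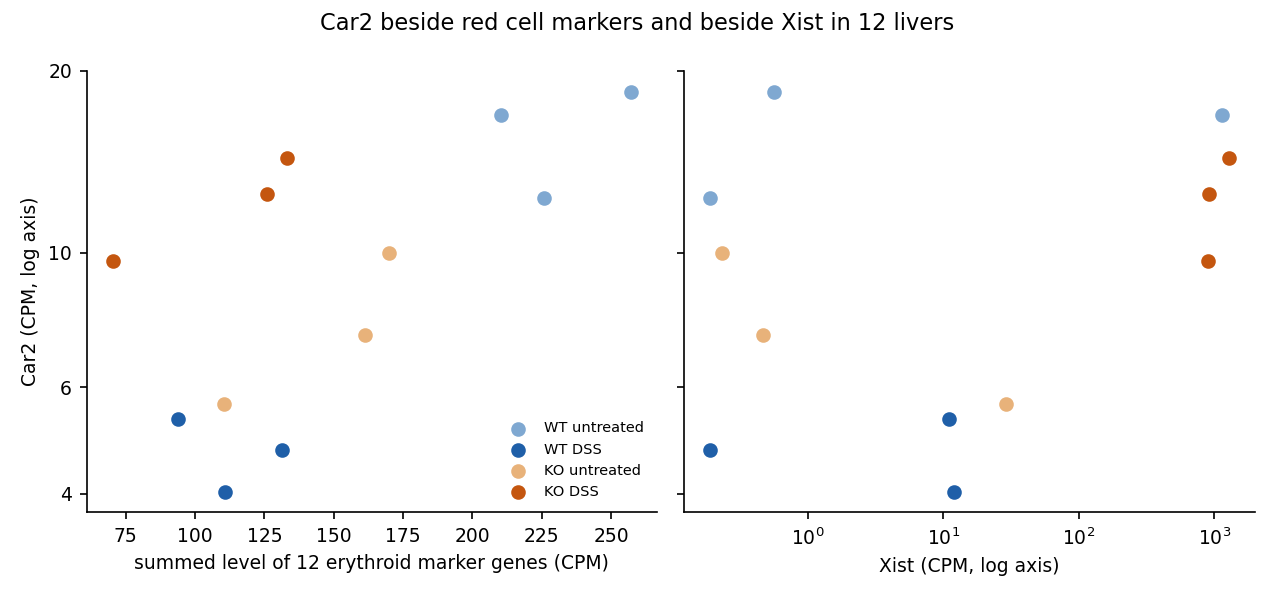
Car2 in CPM (vertical axis, log scale) of the 12 livers against the summed level of 12 erythroid markers in CPM (left) and against Xist in CPM (right, log scale), with 1 point for each mouse coloured by group. WT untreated mice lie at 210 to 257 CPM of erythroid markers, most of it Tfrc and Alas2, and all others at 170 or below. The KO DSS mice, all high in Xist, share that range of Xist with 1 WT untreated mouse.

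Hepatocyte zones were read from genes of the cells around the central vein (pericentral) and the portal tract (periportal). Of 14 pericentral genes, Nkd1, an inhibitor of Wnt signalling, fell in wild-type mice by -0.93 ± 0.17 (SE, edgeR adjusted p = 0.0259), where 0.232% of all genes were called lower. In knockout mice 4 of the 14 fell, against 2.46% of all genes, Aldh1a1 by -1.62, Cyp2e1 by -2.10, Gulo by -1.33 and Nkd1 by -0.72. The median of the list was -0.73 in wild-type and -1.30 in knockout mice, negative in both, whereas Car2 was lower in the former and higher in the latter. Of 15 periportal genes none passed in wild-type mice (3 at an unadjusted p under 0.05, none by DESeq2), and Ctsc, a lysosomal protease, rose in knockout mice by 0.99 ± 0.21 (SE, adjusted p = 0.0157). Neither list had a call for the difference between the responses by edgeR. Unadjusted, 2 of each were under 0.05, and DESeq2 called 1 pericentral and no periportal gene.

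Other cell markers were called in knockout mice. Of 11 Kupffer cell genes, 10 rose in KO DSS mice, against 4.57% of all genes called higher, and none passed in WT DSS mice, where 0.453% of all genes were called higher. There 8 of the 11 were under an unadjusted p of 0.05 and DESeq2 called none. None was called for the difference by edgeR or DESeq2, with 1 under 0.05 unadjusted. Clec4f, a lectin of Kupffer cells, rose by 1.07 ± 0.22 (SE, edgeR adjusted p = 0.0154) in knockout mice. The sum of the list was 338 to 677 CPM in WT untreated, 532 to 1129 in WT DSS, 419 to 463 in KO untreated and 804 to 1235 in KO DSS mice, so it was higher after DSS in both genotypes, with overlap in wild-type mice. Csf3r of 9 neutrophil genes (1.58 ± 0.33), Des of 8 stellate cell genes (1.98 ± 0.42) and Hnf4a of 10 hepatocyte genes (-0.70 ± 0.18) were the calls of those lists in knockout mice (log2 ± SE). In knockout mice 4.57% of all genes were called higher and 2.46% lower. None of these lists had an edgeR call in wild-type mice or for the difference. All 9 neutrophil genes had a positive change in both genotypes, with a median of 3.37 in wild-type and 4.60 in knockout mice. In wild-type mice 6 of the 9 had an unadjusted p under 0.05 and DESeq2 called 4. Hepatocyte-defining genes summed to between 141321 and 206044 CPM in all livers, and Alb to at least 62894.

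Endothelial genes had the signs of Car2 more often than not, without a call. Of 11 liver endothelial genes, 10 had a negative change in wild-type mice (median -0.25 on the log2 scale) and 8 a positive one in knockout mice (median 0.10), and the difference between the responses was positive for 10 (median 0.58, where that of all genes was -0.02). None passed by edgeR in wild-type mice, in knockout mice or for the difference, with 4, 2 and 5 at an unadjusted p under 0.05 and 2, 1 and 0 called by DESeq2. Over the 12 libraries all 11 had a positive Pearson r with Car2, with a median of 0.56 and, within groups, of 0.36. The summed level of the list was 652 to 722 CPM in WT untreated, 384 to 733 in WT DSS, 609 to 684 in KO untreated and 642 to 789 in KO DSS mice, so the groups overlapped in both genotypes. The part of endothelial cells in the Car2 values was not tested.

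The genes most like Car2 were ranked by Pearson r of log2 CPM over the 12 libraries, among 11006 named genes with a mean of at least 1 CPM. These points share the 4 groups, so that r reflects the group means as well as the mice within groups. The 12 most alike had r of 0.87 to 0.94 and Spearman rho of 0.84 to 0.95. Without the 2 libraries farthest from the Car2 median, WT DSS mice 2 and 3, r was 0.82 to 0.93. Of all ranked genes 64 had r above 0.8 and 40 below -0.8, and the 95th percentile of r was 0.64.

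Rg9mtd2, a tRNA methyltransferase, came first with r = 0.94. It was at 5.47, 4.99 and 5.81 CPM in WT untreated, 3.55, 2.93 and 3.11 in WT DSS, 4.76, 4.40 and 3.56 in KO untreated and 4.77, 4.38 and 4.76 in KO DSS mice. Its wild-type groups did not overlap and its knockout groups did, and the log2 fold changes were -0.76 ± 0.17 and 0.13 ± 0.17 (SE).

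Cct5, a subunit of the cytosolic chaperonin, had r = 0.93. Its levels were 199, 161 and 174 CPM in WT untreated, 131, 121 and 122 in WT DSS, 151, 172 and 141 in KO untreated and 211, 159 and 186 in KO DSS mice. Within groups, from the deviations of each mouse from its group mean, Cct5 had r = 0.90 with Car2, the highest value among the 12. Hpgd, which breaks down prostaglandins, had r = 0.92. It was at 266, 195 and 274 CPM in WT untreated and at 126, 95.1 and 96.2 in WT DSS mice, a log2 fold change of -1.21 ± 0.19 (SE), and at 151 to 198 in KO untreated and 159 to 226 in KO DSS mice, which overlapped.

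Sdpr, a coat protein of caveolae, had r = 0.91, at 15.8 to 24.7 CPM in KO untreated and 26.4 to 33.6 in KO DSS mice. It was among the 4 of the 12 whose knockout groups did not overlap, against 31.8% of all genes tested. The others of these 4 were Cacybp, a binding partner of the ubiquitin ligase Siah, Mrps16 of the mitochondrial ribosome and 2900010M23Rik. Tmem70, needed to assemble mitochondrial ATP synthase, Fam136a, Zc3h15, Amotl1, a protein of cell junctions, and Tomm5, of the mitochondrial import pore, made up the 12. All 12 were lower in WT DSS than in WT untreated mice without overlap, where 18.7% of all genes tested did not overlap. Their fitted log2 fold changes were -1.21 to -0.31 in wild-type mice, and all 12 had a positive knockout change of 0.12 to 0.59. Ranking by likeness favours those signs and the lack of overlap in wild-type mice. Car2 had a larger wild-type change, -1.76, than any of them and a larger knockout change, 0.67. Car2 was chosen on its DSS responses and the 12 on likeness whatever the size, so this comparison of sizes is only a description.

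The 6 genes least like Car2 had r of -0.90 to -0.86. Nf1, which restrains Ras, was at 83.2, 88.6 and 89.5 CPM in WT untreated and at 102, 113 and 120 in WT DSS mice. Etnk1, which phosphorylates ethanolamine, was at 125 to 155 CPM in WT untreated, 163 to 209 in WT DSS, 159 to 173 in KO untreated and 116 to 129 in KO DSS mice, so that its groups did not overlap in either genotype. Maml3, a Notch coactivator, Ncoa1, a coactivator of nuclear receptors, Heatr5b and the processed transcript B930095G15Rik were the others.

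**Figure D5:**
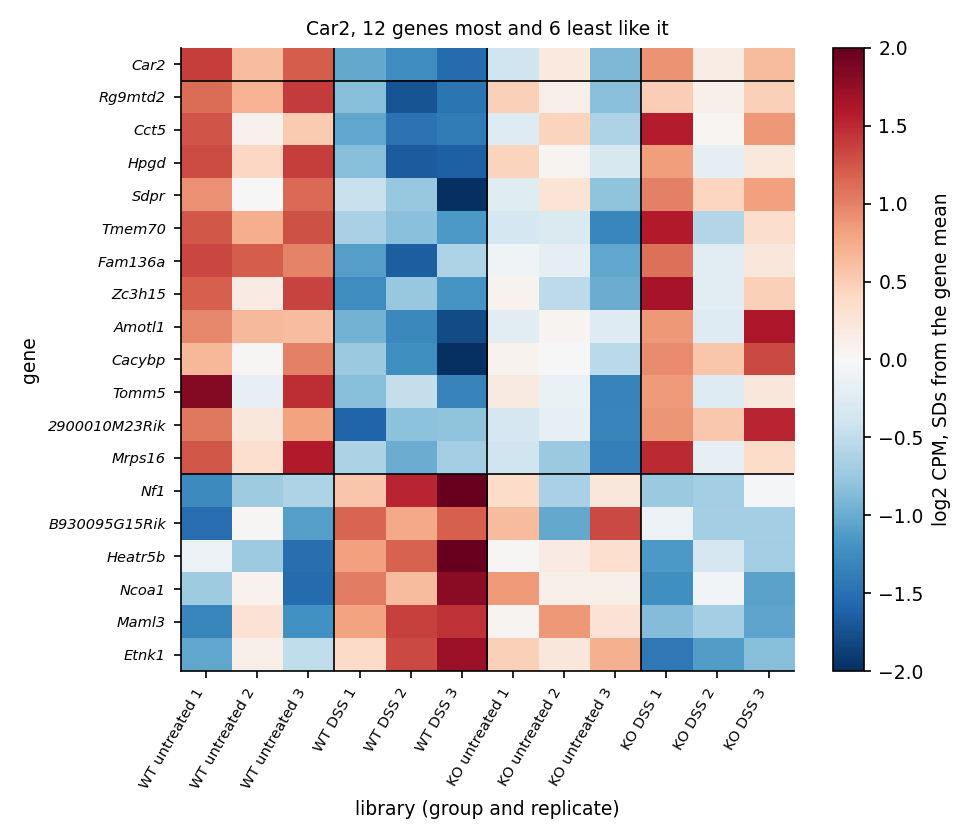
Level of Car2 (top row), the 12 genes most like it (middle rows) and the 6 least like it (bottom rows) in the 12 libraries, as log2 CPM in SDs from each gene's mean over the libraries, red above and blue below. The WT DSS libraries are blue for Car2 and the 12 genes and red for the 6, and KO DSS mouse 1 is the reddest of the knockout libraries for several of the 12.

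The ranking was less fixed than the direction of Car2. By Spearman rho 7 of the 12 were again among the first 12, and without the 2 farthest libraries 4 were. By the deviations from group means none was, although all 12 had a positive r within groups, from 0.47 to 0.90, where 145 of the 11006 genes were above 0.8. The other carbonic anhydrases were not near the top: over the 7 that could be ranked r with Car2 was -0.09 to 0.48, and Car1 was the highest at rank 1464.

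Car2 was also set against measures of the libraries. Its r was -0.06 with total counts, -0.30 with genes detected, 0.18 with the TMM factor, 0.31 with Xist and -0.42 with the Y-linked sum (rho of -0.05, -0.22, 0.01, 0.38 and -0.33). Without WT DSS mice 2 and 3, r was -0.72 with genes detected and -0.45 with the TMM factor. Among the remaining libraries Car2 was thus lower where more genes were detected, while within groups over all libraries that r was -0.17. The part of genes detected in the Car2 values was not tested. The erythroid sum, mostly Tfrc and Alas2, had r = 0.59 and rho = 0.65 over all libraries, and r = 0.63 within groups. The hepatocyte sum had r = 0.11 and 0.67 within groups, and the cholangiocyte sum 0.33 and -0.10. These are descriptions over 12 libraries that share the group differences.

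Other genes with opposite responses were then counted. Of 17652 genes tested, 3967 were lower in wild-type and higher in knockout mice after DSS, and 4467 the reverse. The edgeR test called 72 genes for the difference between the responses, 43 of them positive. Leaving out Car2, for which no test is reported, 37 called genes had its signs. Of the 37, 31 were also called in knockout mice, 8 in wild-type mice and 3 in both. Over all genes 7.02% were called in knockout and 0.685% in wild-type mice, and choosing genes by the difference favours such calls. The interaction estimate was below that of Car2 for 14 of the 37. Cacybp was among both these genes and the 12 most like Car2. Its difference between the responses was 1.16 on the log2 scale.

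The 10 with the largest differences included genes that were highest in mice with high Xist. Hao2, a peroxisomal hydroxyacid oxidase, was at 19.8, 21.6 and 137 CPM in WT untreated, at most 0.824 in WT DSS, 0.0966 to 2.15 in KO untreated and 37.9 to 84.8 in KO DSS mice. Slc22a26, an organic anion transporter, was at 22.6, 74.8 and 227 CPM in WT untreated, 1.67 to 5.75 in WT DSS, 1.90 to 8.64 in KO untreated and 184 to 277 in KO DSS mice. Both belong to the female-biased list and were highest, among WT untreated mice, in mouse 3 with high Xist, which Car2 was not. For both genes the other WT untreated mice, low in Xist, were also above all WT DSS and KO untreated mice. Slc16a5, a monocarboxylate transporter also on that list, was called in both genotypes with opposite signs, -1.72 ± 0.31 in wild-type and 1.27 ± 0.31 in knockout mice (log2 ± SE), with edgeR adjusted p of 0.0279 and 0.0301.

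Dntt, the DNA polymerase of lymphocytes that adds untemplated bases, rose in knockout mice from 0.625 to 0.814 CPM to 6.39 to 10.4 CPM and was at 1.22 to 1.63 in WT untreated and 0.532 to 1.00 in WT DSS mice, with a difference of 4.55 ± 0.40 (SE, edgeR adjusted p = 0.000817). Cyp2g1, a cytochrome P450, was at 2.43 to 4.81 CPM in WT untreated and 4.66 to 12.4 in KO DSS mice, and its difference was 4.53 ± 0.73 (adjusted p = 0.0270). Ccnb1, the cyclin of mitosis, and Cenpf, a kinetochore protein, had differences of 4.96 ± 0.88 and 4.53 ± 0.83. Both were highest in WT untreated mouse 3, at 8.21 and 14.3 CPM. Gm13855 and the unnamed ENSMUSG00000106069 and ENSMUSG00000099889 had differences of 5.04, 10.69 and 6.09. Cdx4, a homeobox gene, had no counts in WT DSS mice, 14 to 44 counts in WT untreated, at most 18 in KO untreated and 177 to 309 in KO DSS mice, so its fold is not given.

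Female-biased liver genes as a list had a positive difference between the responses for all 8 tested, 3 of them called, against 0.244% of all genes. Male-biased genes, Car3 among them, had a negative one for all 10, with Susd4 called, against 0.164%. The median r of the female-biased genes with Car2 was 0.53 over the libraries and -0.11 within groups. In knockout mice Hao2, Slc16a5 and Slc22a26 rose and Cyp2u1, Elovl3, Nudt7 and Susd4 fell among these lists. The summed level of the female-biased genes was 2310 to 4822 CPM in KO DSS mice, 3973 in the highest WT untreated mouse and 57.3 to 447 in WT DSS mice. These sums moved with Xist, and their part in the Car2 values was not tested.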

How the data were processed

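Liver RNA from 12 mice was sequenced by the study. Per the labels and methods, the authors trimmed reads with fastp, aligned them to mm9 with HISAT2 and derived counts with StringTie. Alternatives were other filters and scalings, only the groups compared, a replicate block, a sex-linked covariate, leaving out each mouse and, added after seeing the data, only libraries with low Xist. The deposited values are estimated counts per gene, and their totals are not the number of reads sequenced. The annotation behind them is not given in the sources used here: 28677 of 51609 identifiers were named by GENCODE vM1, which also gave positions and the exon lengths for RPKM.

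Genes were filtered with filterByExpr (17652 kept), scaled by TMM (factors 0.758 to 1.13) and tested with the quasi-likelihood test of edgeR 4.0.16 in R 4.3.3, with 1 model of the 4 groups. The Benjamini-Hochberg adjustment covered all tested genes, with calls at an adjusted p under 0.05. DESeq2 1.42.0 was an alternative. The test was checked on simulated data. Log2 CPM used a prior count of 2. Standard errors came from the edgeR fit. Each p-value set a difference between groups against the spread between mice. With 3 mice a group, that spread was estimated over the 4 groups together, with information shared between genes. No libraries in a group were identical.

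Named genes were Car2, the other carbonic anhydrases, the 12 genes most and 6 least like Car2, up to 10 genes called for the difference with Car2's signs, genes within 250 kb, up to 5 called genes a list, and checks. Single markers at or near 0, globins, Alb and the libraries' checks were named after their values were seen. Car2 and the lists were chosen with earlier results of these data known. Replicate numbers are shared between groups, but same-numbered mice did not deviate together (r of -0.084 to 0.17), so they were not taken as pairs. Sequences of Car2 are not printed here.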

Additional observations from a re-analysis of the deposited data

Results flagged for a closer look

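The fitted Car2 changes with DSS had opposite signs in the 2 genotypes, with a difference of 2.43 on the log2 scale. This difference was not tested because the gene was chosen on it. Every treated wild-type mouse was below every untreated one, while the treated and untreated knockout mice overlapped. All KO DSS mice were high in Xist and all KO untreated mice low. The knockout change, and with it the difference, cannot be told apart from that sex-linked difference.

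The edgeR interaction test called 72 of 17652 genes as differing in their responses between wild-type and knockout mice. Leaving out Car2, 37 of these had Car2's signs, and the 10 with the largest differences are given here. The log2 differences were 13.27 for Hao2, 10.69 for ENSMUSG00000106069, 10.64 for Slc22a26, 6.09 for ENSMUSG00000099889, 5.04 for Gm13855, 4.96 for Ccnb1, 4.55 for Dntt, 4.53 for Cenpf and 4.53 for Cyp2g1. Cdx4, without counts in WT DSS mice, had an adjusted p of 0.0431. The groups that differ in these genes also differ in Xist, and the part of that difference was not tested.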

How the results depend on the processing

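Each of the 96 alternative values of the Car2 fold changes kept its sign and moved by less than the spread between mice, and so did the 8 alternative group means. Counts of called genes moved more. DESeq2 called 840 genes in wild-type mice, 2315 in knockout mice and 699 for the difference, where edgeR called 121, 1240 and 72. With only the groups compared, 21 were called in wild-type mice, and 16 among libraries with low Xist. With the sex-linked class as a covariate the counts were 50, 4 and 4. The covariate is informed by 1 group of mice only, through WT untreated mouse 3, which had both high Xist and Y-linked transcripts. Leaving out 1 mouse gave 35 to 209 (wild-type), 241 to 1736 (knockout) and 21 to 220 (difference). Among the family without Car2, 1 gene was called in wild-type mice by DESeq2, with at least 10 counts in every library and with the covariate, and 0 to 1 without 1 mouse. In knockout mice 0 were called with the covariate and 0 to 4 without 1 mouse.

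With the replicate block, an unpaired alternative because the numbers did not pair the mice, 128 genes were called for the difference and 1 family member in wild-type mice.

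Of the 12 genes most like Car2, 7 stayed by Spearman rho, 4 without the 2 farthest libraries, 0 by deviations from group means and 7 to 11 without 1 mouse.

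No value whose sign reversed passed the test after reversal. With the covariate these were 0.31 (Car3, difference), -0.068 (Car5b, difference), 0.062 (Car8, wild-type) and 0.020 (Cyp2u1, knockout, which was called without it), and 0.069 for Car8 among libraries with low Xist. Without 1 mouse the difference ranged from -0.023 to 0.40 for Car5a, -0.17 to 0.80 for Car1, -0.86 to 0.42 for Car3 and -0.094 to 0.48 for Car14, the knockout change of Car5b from -0.14 to 0.14 and the wild-type change of Car8 from -0.41 to 0.14. The causes were not tested. With 3 mice a group, the number of mice limits what could be called.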
